A study of Mus musculus with 6 samples.

Results

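The hippocampus of mice lacking Atxn2 was compared with that of wild-type mice at the level of gene transcripts. Atxn2 encodes ataxin-2, an RNA-binding protein that binds poly(A)-binding protein, collects in stress granules and influences the stability and translation of messenger RNAs, and in people an expanded glutamine tract in this protein causes a spinocerebellar ataxia. The hippocampus is a forebrain structure built around the granule neurons of the dentate gyrus and the pyramidal neurons of the CA fields, which signal through glutamate and are known for strong synaptic plasticity.

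Libraries were prepared by massive analysis of cDNA ends, a method that sequences 1 tag near the 3′ end of each polyadenylated transcript. Each of the 6 libraries of the series held RNA pooled from 3 C57BL/6 mice of 6 months, homozygous for the knockout (Atxn2-KO) or wild type, and came from cerebellum, hippocampus or liver. The comparison here is between the hippocampus knockout library and the hippocampus wild-type library, with 1 pool per genotype. The extraction protocol gives ages in weeks and names midbrain where the sample labels name hippocampus, and the sex of the animals was not given in the sources used here.

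Members were all transcripts of the RefSeq RNA set, summed by gene symbol over sense tags, with rows that named several genes kept as joint features. A sense tag was found in hippocampus for 19647 of the 23113 features with a tag anywhere in the series. Levels are given as CPM, the tags of a gene per 1000000 scaled gene tags, and 10321 features lay below a mean of 10 CPM in the 2 libraries. Transcripts at least 20 times higher in liver or in cerebellum than in hippocampus were set apart. This left 9205 features, called brain genes here, and put 121 in the set-apart group.

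Gene tags numbered 2335834 in the knockout library and 2139501 in the wild-type library. Ratios are log2 of knockout over wild type after scaling, so that 1 is a 2-fold difference, and each carries an exact 95% counting interval. With 1 library per genotype there was no replicate and no test, so each interval covers counting error only and compares these libraries, not the genotypes. Over all brain genes the median log2 ratio was 0.01, with quartiles of -0.19 and 0.22. The interval lay above 0 for 11.6% of the brain genes and below 0 for 9.46%. The SD of the log2 ratio among genes of at least 500 CPM was 0.27, against a counting SD of 0.048 for the same genes, so abundant genes differed between the libraries by more than counting error. The size rule used below asks for a ratio of at least 1 in either direction, a mean of 10 CPM and an interval that excludes 0.

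Atxn2 itself, on chromosome 5 from 121711609 to 121814950 (RefSeq, GRCm38.p6), gave 1 tag in the knockout library and 194 in the wild-type library. The log2 ratio was -7.71, with an interval of -13.02 to -5.22, and in cerebellum the same gene gave 0 and 167 tags. The tags of the targeted gene therefore went with the genotype labels in both brain tissues. The labelled tissue was checked on marker genes of the hippocampus that the cerebellum hardly expresses. Fibcd1, a marker of CA1 pyramidal neurons, gave 345 and 336 tags in the knockout and wild-type hippocampus and 1 and 3 in cerebellum, and C1ql2, a synaptic organiser of dentate granule neurons, gave 366 and 294 in hippocampus. Th, the rate-limiting enzyme of dopamine synthesis and a marker of midbrain dopamine neurons, gave 1 tag in each hippocampal library.

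Xist, the noncoding RNA made from the inactive X chromosome of female cells, gave 0 tags in the knockout library and 49 in the wild-type library, and the same held in cerebellum with 0 and 34. With a floor of 3 tags in place of the 0, Xist was 17.7-fold lower in the knockout hippocampus. Its counting interval lay below a log2 ratio of -3.79. The Y-linked genes Eif2s3y and Ddx3y were present in both hippocampal libraries, at 84 and 46 tags and at 155 and 112 tags. A difference between genotypes and a difference in the sex of the pooled animals therefore cannot be told apart in these libraries.

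Transcripts of liver stood out as the group with the lowest ratios. Of the 114 liver-rich transcripts at 10 CPM, 99 had an interval below 0 and 80 passed the size rule as lower in the knockout, with a median log2 ratio of -1.92. The share of set-apart transcripts that passed as lower was 68.6%, and the share that passed as higher was 0. Alb, the main protein of blood plasma, gave 458 tags in the knockout and 2465 in the wild-type hippocampus (log2 ratio -2.54, interval -2.69 to -2.40). Among those with a full gene name, not a clone or predicted one, Serpina3m, a protease inhibitor of liver, was lowest at 4 against 52 tags (-3.81). Serpinc1, which encodes antithrombin, followed at 7 against 66 (-3.35), Ces1c, a plasma carboxylesterase, at 9 against 71 (-3.09), Cfb, complement factor B, at 6 against 46 (-3.05) and Saa2, an acute phase protein, at 7 against 50 (-2.95). Together the liver-rich transcripts at 10 CPM made up 0.249% of gene tags in the knockout and 0.777% in the wild type. The limit of 10 CPM applies to the mean of both libraries, so a transcript could pass it through the wild-type library alone. Over all 547 liver-rich features with a hippocampal tag, 214 intervals lay below 0 and 1 above, with a median log2 ratio of -1.20.

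Among transcripts at 10 CPM and above 5 times the hippocampal level, the ratio was lower the higher the level of a transcript in liver was. The median log2 ratio was 0.01 for transcripts below their hippocampal level in liver, 0.02 for those 1 to 2 times higher there, -0.01 for 2 to 5 times, -0.07 for 5 to 10 times, -0.27 for 10 to 20 times, -0.66 for 20 to 50 times and -2.25 for 50 to 200 times. Transcripts rich in cerebellum were few. Of the 7 at 10 CPM, 3 passed as lower: Pcp2 and Car8, both markers of Purkinje cells, gave 27 against 74 tags and 18 against 51, and Cbln1, a synaptic organiser released by cerebellar granule neurons, gave 14 against 32. Pvalb, the parvalbumin gene, was lower by less (222 against 285 tags, -0.47), and Slc1a6, Zic1 and Chn2 had intervals that included 0. Markers of Purkinje cells that were not set apart, 12 in all, had 2 intervals above 0 and 2 below (median -0.04). The 2 above were Fabp7 and Calb1, which are also listed here for radial glia and for dentate granule neurons. The 12 markers of cerebellar granule neurons that were not set apart had 2 intervals above 0 and 1 below (median 0.01). Whether the liver and cerebellum transcripts were made in the hippocampal tissue or came with it from elsewhere was not tested. Ttr, which both liver and the choroid plexus make, belonged to the set-apart transcripts with 424 against 1074 tags (-1.45). The choroid plexus markers Kl, Folr1 and Sostdc1 gave 26 against 26, 4 against 4 and 8 against 14 tags, with intervals that included 0.

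**Figure D1:**
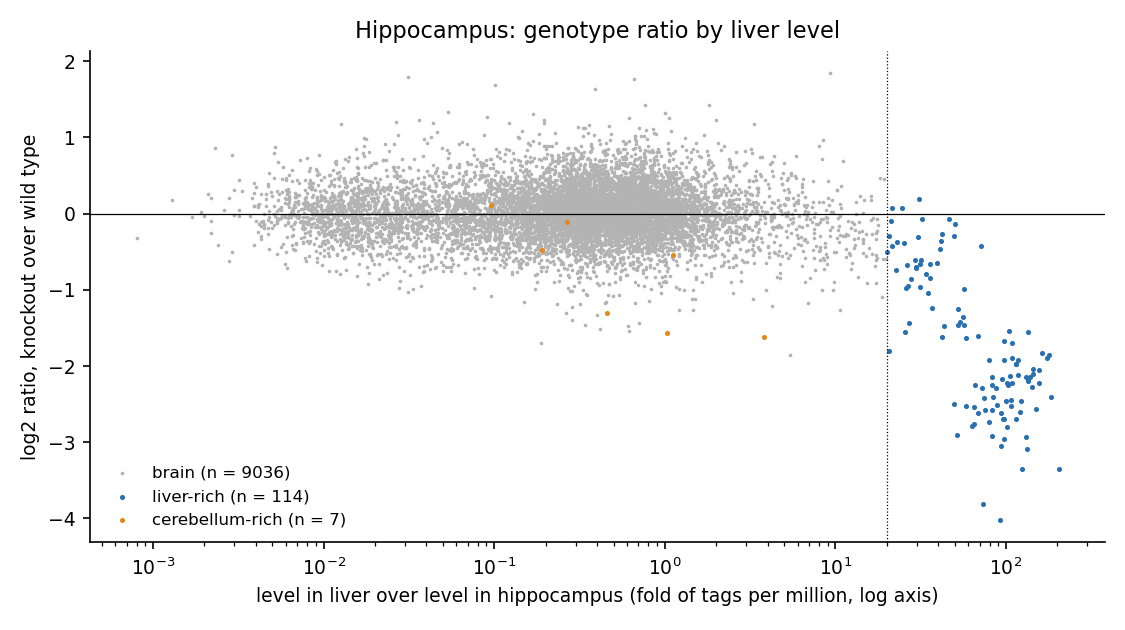
Log2 ratio of knockout over wild type in hippocampus (vertical axis) against the level in liver relative to hippocampus (log axis, both genotypes), for features of at least 10 CPM with a tag in liver; Atxn2 and Xist are not drawn. Grey points are brain genes, blue points are liver-rich, orange points are cerebellum-rich, and the dotted line marks the 20-fold rule; the blue points sink to the right, with a median of -2.25 between 50-fold and 200-fold.

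Among the brain genes, 52 (0.565%) passed the size rule as higher in the knockout and 46 (0.5%) as lower. Most of them had low levels: the share of brain genes with an absolute ratio of at least 1 was 3.22% between 10 and 20 CPM and 0.184% between 100 and 200.

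**Figure D2:**
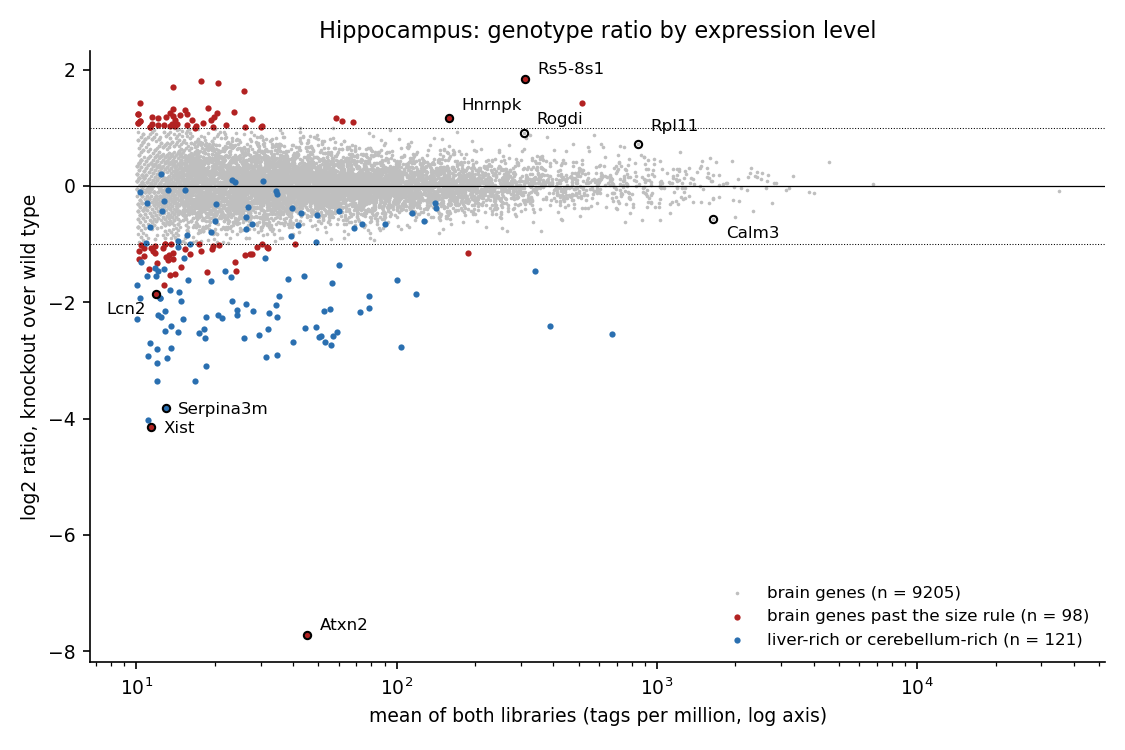
Log2 ratio of knockout over wild type in hippocampus (vertical axis) against the mean level of the 2 libraries (CPM, log axis). Grey points are the 9205 brain genes, red points the 98 of them past the size rule, and blue points the 121 set-apart transcripts; Atxn2 lies lowest at -7.71, and the dotted lines mark ratios of 1 and -1.

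Ribosomal RNA, which a poly(A) library holds only as a remnant, gave the highest ratio and the highest tag numbers among the brain genes past the size rule. The feature Rs5-8s1 (5.8S ribosomal RNA) gave 1135 tags in the knockout and 292 in the wild type (log2 ratio 1.84, interval 1.66 to 2.04), and the joint feature Rn28s1/Rn45s gave 1744 and 602 (1.42, interval 1.29 to 1.56). In cerebellum the ratios of the same features were 0.28 and -0.12. Rn18s, counted mostly in rows that it shares with other features, gave 56 and 62 tags and an interval that included 0. The share of ribosomal RNA thus differed between the hippocampal libraries, and its part in the other results was not tested.

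Of the protein-coding genes with the highest ratios, several act in neurons. Trpv2, a cation channel on chromosome 11 (62574486 to 62600305, GRCm38.p6), gave 49 tags in the knockout and 14 in the wild type (1.69, interval 0.81 to 2.67), and 44 and 45 in cerebellum. Mef2a, a transcription factor of the MEF2 family that shapes synapse number, gave 51 and 19 (1.31) in hippocampus and 26 and 13 (1.06, interval 0.04 to 2.14) in cerebellum, so both brain tissues lay on the same side. Resp18, a protein of the secretory granules of peptide-releasing cells, gave 188 and 77 tags (1.17, interval 0.78 to 1.58). Acvr2a, an activin receptor, gave 64 and 26 (1.19) and Nckipsd, an SH3 adaptor protein of the actin machinery, gave 42 and 17 (1.19).

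Other genes of this group handle RNA or protein. Hnrnpk, on chromosome 13 (58391132 to 58403343), encodes an RNA-binding protein of pre-mRNA processing and was the most abundant of the single-gene protein-coding brain genes past the rule, with 511 tags in the knockout and 210 in the wild type (1.17, interval 0.93 to 1.41). In cerebellum it gave 440 and 466 tags, a ratio of -0.03 with an interval of -0.22 to 0.16. Zfp36l2, which binds AU-rich elements and promotes mRNA decay, gave 67 and 26 (1.25). Parn, a poly(A)-specific ribonuclease, gave 35 and 16 (1.02). Psmg1, an assembly chaperone of the proteasome, gave 46 and 17 (1.32), and Psmb3, a subunit of the proteasome core, gave 215 and 93 (1.10, interval 0.74 to 1.46), against a cerebellar ratio of 0.00. Adck4, a kinase-like protein of coenzyme Q synthesis in mitochondria, had the highest ratio among the named protein-coding genes, with 74 and 20 tags (1.77). Trmt2b, a tRNA methyltransferase, gave 33 and 13 (1.23), and Myef2, Commd5, Rpgrip1l, Csrp2 and Tbc1d10a had ratios from 1.15 to 1.34.

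Fabp7, a lipid-binding protein of radial glia and astrocytes, gave 78 tags in the knockout and 30 in the wild type (1.26, interval 0.64 to 1.92), and its ratio was 0.80 in cerebellum with 82 and 49 tags. Ddah2, which degrades an inhibitor of nitric oxide synthase, gave 48 and 19 (1.22) in hippocampus and 162 and 123 (0.45, interval 0.11 to 0.80) in cerebellum. Of the 52 brain genes higher in hippocampus, 5 had a cerebellar interval above 0 and 2 had one below 0. Over all brain genes the cerebellar interval lay above 0 for 7.15% and below 0 for 6.54%.

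On the lower side, after Atxn2 and Xist, the lowest ratio was that of Lcn2, lipocalin 2, an iron-siderophore carrier of neutrophils, reactive astrocytes and inflamed liver, with 12 tags in the knockout and 40 in the wild type (-1.85, interval -2.92 to -0.89). Its liver level was 5.42 times its hippocampal level, so it lay below the 20-fold limit but in the range where ratios sank with the liver level. Nqo2, a quinone reductase at 14 and 31 tags (-1.26), and Slc7a2, a transporter of basic amino acids at 23 and 48 tags (-1.18), had liver levels of 10.6 and 6.90 times the hippocampal level. The part of liver RNA in these 3 values was not tested.

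Genes whose liver level was less than 5 times the hippocampal level were among the lowest too. Nol9, a kinase of ribosomal RNA processing, gave 23 tags in the knockout and 59 in the wild type (-1.47, interval -2.24 to -0.76). Hspa1b, an inducible heat shock chaperone, gave 40 and 83 (-1.17, interval -1.75 to -0.61), and its cerebellar ratio was -0.86 from 18 and 34 tags. Irak2, a kinase of interleukin-1 and Toll-like receptor signalling, gave 18 and 40 (-1.27), with a cerebellar ratio of -0.81. Akap12, a scaffold of protein kinase A, gave 19 and 40 (-1.19), Grb10, an adaptor that restrains insulin receptor signalling, gave 17 and 35 (-1.16) and Rbms3, an RNA-binding protein, gave 18 and 39 (-1.23). The joint feature H2-Q4/Nkain3, whose tags match both genes, gave 270 and 558 tags (-1.16, interval -1.38 to -0.95) and -0.38 in cerebellum. Hps6, Zfp740, Pdlim1, Enpp4, Kank2 and Stradb completed the named group with ratios from -1.32 to -1.11, as did the joint feature Bcmo1/F10 at -1.70 and H2-Q4 at -1.15, almost all of whose tags lay in shared rows. Of the 46 brain genes lower in hippocampus, 7 had a cerebellar interval below 0, beside the 6.54% over all brain genes, and 1 had one above 0.

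Genes of at least 200 CPM allowed smaller differences to be measured. Of the 930 such brain genes, 31.8% had an interval above 0 and 24.7% one below 0. Rogdi, mutated in a human syndrome of epilepsy and enamel defects, had the highest ratio of these after ribosomal RNA, with 937 tags in the knockout and 459 in the wild type (0.92, interval 0.75 to 1.08). Hpcal4, a neuronal calcium sensor, gave 976 and 493 (0.87). Htra1, a secreted serine protease of astrocytes and vessels, gave 934 and 489 (0.82) but -0.12 in cerebellum. The joint feature Ankfy1/Synrg gave 1372 and 771 tags (0.72) and 0.29 in cerebellum.

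Globin tags, which mark red blood cells, were higher in the knockout hippocampus as well. Hba-a1/Hba-a2, the joint feature of alpha globin, gave 1763 and 989 tags (0.72, interval 0.61 to 0.83) and Beta-s, a beta globin, gave 1768 and 1027 (0.67, interval 0.56 to 0.78). In cerebellum the globin features were higher in the knockout by 0.62 and 0.35. Of the 9 red blood cell genes among the brain genes at 1 CPM or more, 5 had intervals above 0 and none had one below 0. Alas2, the enzyme of haem synthesis in red cell precursors, lay among the set-apart transcripts with 12 and 8 tags, and Slc4a1, the anion exchanger of the red cell membrane, was below 1 CPM. The part of blood in the other results was not tested.

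Other abundant genes had low ratios. Iqsec2, an exchange factor for small GTPases in the postsynaptic density, gave 447 and 679 (-0.72) and 0.08 in cerebellum. Rapgef4, a cyclic AMP sensor, gave 390 and 585 (-0.70), Mark2, a kinase of microtubule-associated proteins, gave 374 and 528 (-0.61) and Pink1, a kinase of mitochondrial quality control, gave 612 and 872 (-0.62).

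Ddn, the dendrin gene, whose mRNA travels into dendrites, gave 1387 tags in the knockout and 1966 in the wild type (-0.62, interval -0.72 to -0.52) and was hardly found in cerebellum. Mtap1b, the older symbol of the microtubule-associated protein Map1b, gave 1909 and 2645 (-0.58) in hippocampus and 0.11 in cerebellum. Calm3, a calmodulin gene, gave 3073 and 4226 (-0.57, interval -0.64 to -0.51) against -0.08 in cerebellum. Fbxl16, Atp6v0a1 and Ppp2r2c had ratios of -0.58 each, and the joint feature Cplx2/Emp2/Rab3c had one of -0.77, against 0.22 in cerebellum. That joint feature gave 614 and 967 tags, while the feature of Cplx2 alone gave 2940 and 2791 (-0.04).

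**Figure D3:**
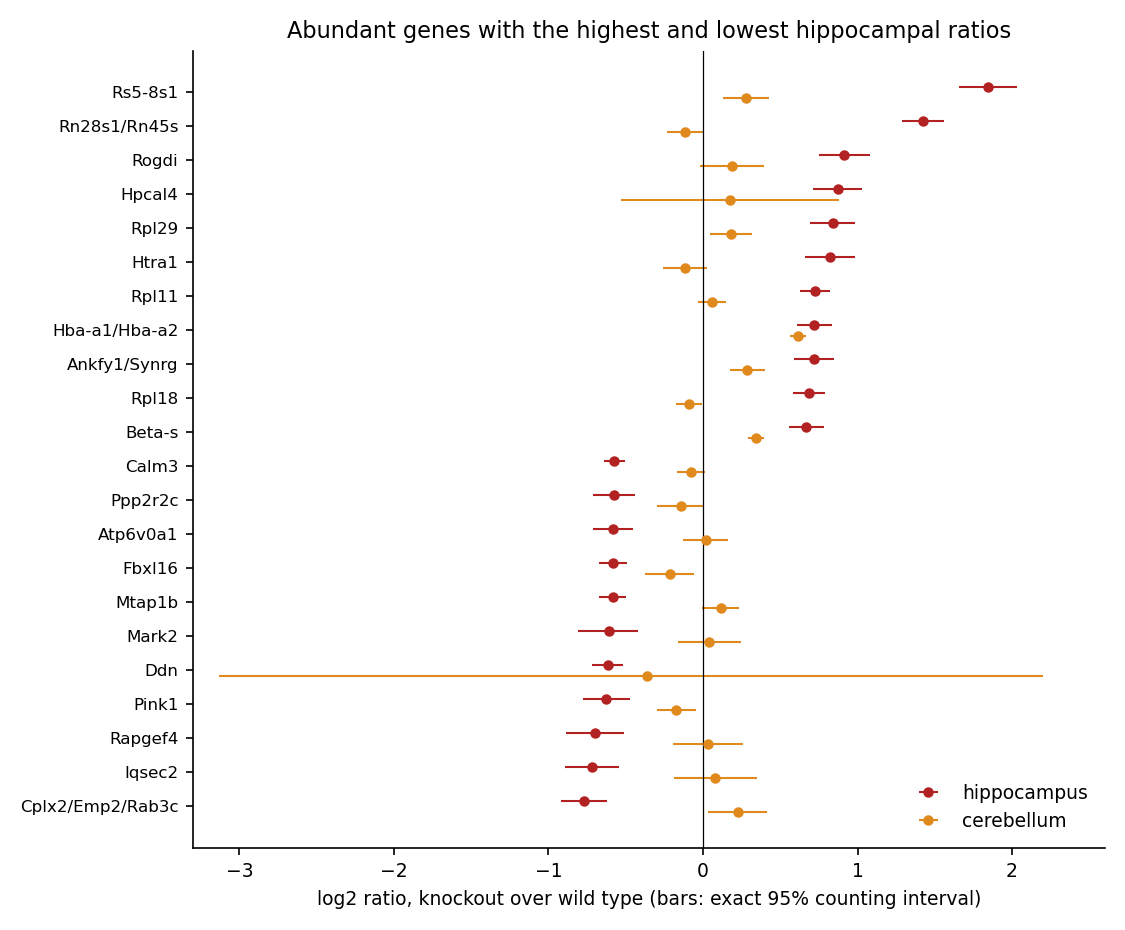
Log2 ratio of knockout over wild type (horizontal axis) for 11 of the 12 highest and 11 of the 12 lowest brain genes of at least 200 CPM, in hippocampus (red) and cerebellum (orange); points are ratios of 1 library per genotype and bars are exact 95% counting intervals. The 2 globin features, Rs5-8s1, Rpl29 and Ankfy1/Synrg had intervals above 0 in both tissues. Those of Pink1 and Fbxl16 lay below 0 in both, with cerebellar ratios of -0.17 and -0.22. The intervals of Rpl18 and Cplx2/Emp2/Rab3c lay on opposite sides.

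Genes of translation were described next, because ataxin-2 acts on mRNA translation. The lists of genes used from here on are described by how many of their members had an interval above or below 0. The shares over all brain genes given above stand beside them. These shares rise with level, as counting error falls. Between 10 and 20 CPM 5.25% of brain genes lay above 0 and 4.24% below, and from 500 CPM 42.5% and 29.1%. The counts of a list therefore depend on how abundant its members are. Of the 34 proteins of the small ribosomal subunit, 27 had an interval above 0 and none one below 0, with a median of 0.28. Of the 49 proteins of the large subunit, 31 lay above and 3 below, with a median of 0.17. In cerebellum the medians of the same lists were 0.17 and 0.13, with 24 and 27 intervals above 0 and with 0 and 2 below.

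Rps19, a small-subunit protein mutated in Diamond-Blackfan anaemia, gave 2133 tags in the knockout and 1244 in the wild type (0.66, interval 0.56 to 0.77). In the large subunit the highest were Rpl29 with 1126 and 582 (0.84), Rpl11, which binds the p53 regulator Mdm2, with 2449 and 1368 (0.73) and Rpl18 with 2070 and 1190 (0.68). The 3 members with intervals below 0 were Rpl4 (2600 and 2591 tags, -0.11), Rpl21 (1585 and 1659, -0.18) and Rpl31 (1688 and 1796, -0.20). Rps6, the subunit protein phosphorylated downstream of mTOR, was the lowest of the small subunit at 56 and 71 tags, with an interval that included 0. Many ribosomal proteins have near-identical processed copies, and for Rps27, Rps15, Rps16, Rps27a and Rpl7a most tags stood in rows shared with other features, so their values are uncertain.

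Ribosomal protein mRNAs are known for a start that is a C followed by a run of pyrimidines, through which mTOR signalling and LARP1 act on their translation. The annotated start sites of RefSeq (GRCm38.p6) were searched on the coding strand for a C followed by at least 4 bases that are C or T. Of 32851 annotated starts, 823 (2.505%) held this tract, as did 14 of the 60 ribosomal proteins with an entry. The windows below run from 15 bases before to 15 bases from the annotated start, with the tract in capitals, and show 4 genes that were higher in the knockout and the 2 with the lowest ratios among the 14.
Fau: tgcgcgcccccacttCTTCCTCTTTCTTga
Rps27: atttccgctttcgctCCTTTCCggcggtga
Rpl14: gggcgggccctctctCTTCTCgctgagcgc
Rpl35a: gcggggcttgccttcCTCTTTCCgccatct
Rps15a: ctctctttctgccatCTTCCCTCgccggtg
Rps6: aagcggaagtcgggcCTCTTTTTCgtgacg
Fau, on chromosome 19 (6057932 to 6057961, plus strand), gave 3991 tags in the knockout and 2741 in the wild type (0.43). Rps27, on chromosome 3 (90213634 to 90213663, minus strand), gave 2629 and 1756 (0.47), Rpl14, on chromosome 9 (120571502 to 120571531, plus strand), gave 2437 and 1594 (0.50) and Rpl35a, on chromosome 16 (33056467 to 33056496, plus strand), gave 2432 and 1597 (0.49). Rps15a, on chromosome 7 (118116133 to 118116162, minus strand), and Rps6, on chromosome 4 (86857353 to 86857382, minus strand), were among the least tagged members, and their ratios of -0.24 and -0.46 had intervals that included 0. Ribosomal proteins with the tract had a median of 0.36 and those without it at the annotated start 0.19. Among the other genes of at least 10 CPM, the 199 with the tract had a median of -0.00, against 0.01 without it at the start. Annotated starts can miss the true start by a few bases, and a missing match says only that the letters were not found in this window.

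Larp1 was itself the lowest of the 14 measured members of the ataxin-2 paralogue and poly(A)-binding list, with 297 tags in the knockout and 392 in the wild type (-0.51, interval -0.74 to -0.29). Pabpc1, the main cytoplasmic poly(A)-binding protein and the direct partner of ataxin-2, gave 1783 and 1807 (-0.13, interval -0.23 to -0.04). Tnrc6a, a scaffold of microRNA silencing, gave 123 and 148 (-0.38), which made 3 intervals below 0, while none lay above. Atxn2l, the paralogue of ataxin-2, gave 158 and 170 tags (-0.22) with an interval of -0.54 to 0.10. Paip2, which binds and restrains poly(A)-binding protein, had the highest ratio at 256 and 201 tags (0.23), with an interval that included 0.

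Of 40 initiation factors, 11 had an interval above 0 and 5 one below 0, with a median of 0.12. The higher ones were mostly subunits of eIF3, the scaffold that recruits the small subunit, with Eif3l highest (93 and 59 tags, 0.54). The lower ones included Eif1, the most abundant factor (1991 and 2255, -0.29), and Eif2s3x, the X-linked gamma subunit of eIF2 (107 and 155, -0.65). Eif2s3x escapes X inactivation, and its Y-linked copy Eif2s3y went the other way, as given above with Xist. Among elongation factors, Eef1g gave 689 and 426 tags (0.58, interval 0.40 to 0.76), Eef2 gave 3800 and 3163 (0.15) and Eef1a1 gave 6320 and 5527 (0.08), while Eef1a2, the neuronal form, had an interval that included 0. Eef1b2 and Tpt1 also had intervals that included 0, as had Eef1d at 190 and 158 tags and Eef2k, the kinase that inactivates eEF2, at 31 and 45.

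Ribosomal proteins of mitochondria had a median of 0.16, with 11 of 75 intervals above 0 and none below. Mrpl53 was highest at 77 and 43 tags (0.73), and Mrps18c lowest at 103 and 124 (-0.38, interval -0.77 to 0.01). The nuclear-encoded subunits of the respiratory chain showed a like pattern. Of 35 complex I subunits 15 lay above and 1 below, with a median of 0.15, and of 40 subunits of complexes II to V 20 lay above and 1 below, with a median of 0.14. Ndufa8 led complex I with 230 and 142 tags (0.58), and Ndufs1, its largest core subunit, was the member below 0 with 210 and 246 (-0.34). Atp5o of the ATP synthase was highest in the other complexes (872 and 517, 0.64), though nearly all of its tags stood in shared rows, and Cox4i1 of cytochrome oxidase was the most abundant (4498 and 3113, 0.42, interval 0.35 to 0.48). In cerebellum the medians of the respiratory lists were 0.08 and 0.08. Tags of the mitochondrial genome itself took 12.8% of all tags in the knockout and 12.5% in the wild type.

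Other energy pathways had medians nearer to 0 or below it. Of 24 genes of the citric acid cycle and pyruvate dehydrogenase 2 lay above and 4 below 0, with a median of -0.05. Suclg2, the GTP-forming succinyl-CoA ligase subunit, was lowest at 21 and 39 tags (-1.01) and also in cerebellum (-1.10), with a liver level 9.67 times that in hippocampus, and its ATP-forming counterpart Sucla2 was highest at 208 and 135 (0.51). Of 18 glycolytic genes 7 lay above and 3 below, from Gpi1 (1934 and 1457, 0.29) to Slc2a1, the glucose transporter of the blood-brain barrier (119 and 165, -0.59). Gapdh, nearly all of whose tags stood in shared rows, gave 15967 and 14405. Genes that burn fatty acids and ketone bodies, 22 in all, had 2 intervals above 0 and 4 below (median -0.17), with Hadh lowest at 43 and 74 (-0.90) and a liver level 9.85 times the hippocampal level.

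The ribosomal and respiratory lists are made of short mRNAs, and longer transcripts had lower ratios, most clearly among abundant genes. Lengths were taken for 8810 brain genes from GENCODE transcripts linked to their RefSeq accessions. Where several transcripts were linked to an accession, the longest was used. The median ratio fell from 0.12 for transcripts under 1000 nucleotides to -0.04 for those of 6000 or more. Among genes of at least 200 CPM, 56.2% of the shortest class had an interval above 0 and 8.90% one below, while in the longest class 13.2% lay above and 44.7% below. Spearman's rho across the 876 abundant genes was -0.38 in hippocampus and -0.22 in cerebellum, and across all 8810 genes it was -0.13 in hippocampus and -0.0022 in cerebellum. These are descriptions over genes that share the libraries of a tissue.

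A gradient of medians remained without ribosomal and respiratory genes. Abundant genes then had medians of 0.08 (58 genes under 1000 nucleotides), 0.09 (85 genes from 1000 to 1500) and 0.01 (191 genes from 2000 to 3000). Longer ones had -0.06 (125 genes from 4000 to 6000) and -0.11 (76 genes of 6000 or more). In the shortest class 32.8% of intervals then lay above 0 and 20.7% below. Over all brain genes of at least 200 CPM these shares were 31.8% and 24.7%. The longest class stayed at 13.2% above and 44.7% below. The small-subunit proteins, with a median length of 756 nucleotides, lay above the 0.08 of the other short genes. The part of transcript length in the list medians was not tested.

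**Figure D4:**
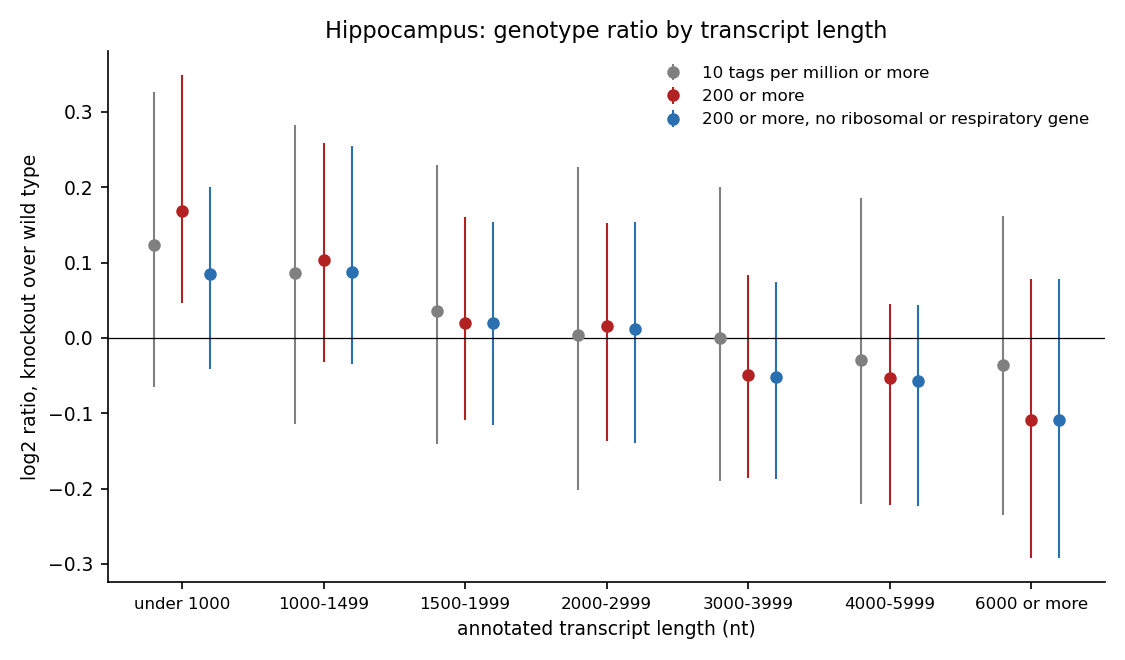
Median log2 ratio of knockout over wild type in hippocampus (points) with quartiles (bars) by annotated transcript length in nucleotides, for brain genes of at least 10 CPM (grey), at least 200 (red) and at least 200 without ribosomal and respiratory genes (blue). The medians step down from left to right in the grey and red sets, from 0.17 to -0.11 in the red one, while the blue one starts at 0.08 and 0.09 and ends at -0.11.

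Markers of the neuron classes were counted from 1 CPM, where 8.27% of the brain genes had an interval above 0 and 6.91% one below. Dentate granule neurons are renewed throughout life and receive the main cortical input. Of their 15 markers 5 lay above 0 and 2 below, with a median of 0.21. Lct, the lactase gene, used here as a granule neuron marker, gave 51 tags in the knockout and 20 in the wild type (1.24, interval 0.47 to 2.06) and none in cerebellum or liver. The other 4 above 0 were C1ql3 (164 and 87, 0.80), Dsp, desmoplakin (98 and 52, 0.80), Slc29a4, a monoamine transporter (186 and 117, 0.55), and Calb1, calbindin (347 and 250, 0.36). Fam163b, the most abundant marker, lay below 0 (708 and 757, -0.21), as did Ahcyl2 (507 and 554, -0.24), and Prox1, the transcription factor that defines these cells, had 13 and 16 tags with a wide interval. The granule neuron markers thus lay on both sides of 0. Fewer cells of a type and less RNA per cell cannot be told apart in such tissue libraries.

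Pyramidal neuron markers had median ratios of -0.08 in CA1, 0.11 in CA2 and -0.26 in CA3. Of 9 CA1 markers none lay above 0 and 1 below, Pou3f1 (310 and 352, -0.30), while Wfs1 (204 and 177), Etv1 (189 and 165), Nov (184 and 178), Mpped1 (68 and 72), Man1a and Ndst4 had intervals that included 0. Among 9 CA2 markers, Rgs14, a suppressor of plasticity in CA2, gave 156 and 106 (0.44, interval 0.08 to 0.81) and Stard5 gave 18 and 6 (1.47). Pcp4 (1012 and 867), Necab2 (333 and 281), Amigo2 (58 and 39) and Ntf3 (35 and 42) had intervals that included 0, and Cacng5, Vit and Fgf5 gave at most 11 tags. Among 11 CA3 markers 1 lay above, Nnat (4981 and 4221, 0.12), and 1 below, Cpne4 (372 and 413, -0.26), and Grik4, Bok, Pvrl3 and Lypd1 had intervals that included 0. Genes shared by excitatory forebrain neurons had 1 interval above and 4 below among 18. The lowest was Tbr1, a cortical transcription factor (55 and 74, -0.54), and Nrgn, neurogranin, the most abundant, gave 8938 and 8940 tags (-0.11). Camk2a, the alpha subunit of CaM kinase II, named here after its value was seen, gave 3793 and 5063 (-0.53, interval -0.59 to -0.47), against -0.12 in cerebellum.

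Of 21 interneuron genes 3 lay above 0, namely Sst, somatostatin (774 and 544, 0.39), Npy, neuropeptide Y (480 and 359, 0.31), and Cort, cortistatin (55 and 31, 0.71), and 1 below. Gad1 and Gad2, the enzymes that make GABA, had intervals that included 0 at 423 and 404 and at 301 and 292 tags. The 3 genes above 0 all encode secreted peptides. Among 25 neuropeptide and granin genes 6 lay above and 2 below, with a median of 0.24. Adcyap1, the PACAP peptide, was highest at 12 and 2 tags (2.47, interval 0.30 to 5.67), and Nmb, neuromedin B, lowest at 14 and 28 (-1.11). Among 22 newborn neuron and radial glia genes 2 lay above 0, Fabp7 and Neurod1 (66 and 37, 0.72), and none below, and Dcx, doublecortin of newborn neurons, gave 9 and 14 tags.

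Presynaptic genes had intervals on both sides of 0. Of 48 genes 11 had an interval above 0 and 15 one below 0, with a median of -0.04. For comparison, 31.8% of all brain genes of at least 200 CPM lay above 0 and 24.7% below. The higher ones of the list included proteins of vesicles and their fusion. Sncb, a protein of presynaptic terminals, gave 2379 and 1518 tags (0.53), Rab3a, a GTPase of vesicles, 4328 and 2884 (0.47) and Vamp2, the main vesicle SNARE, 3762 and 2810 (0.31), all 3 named after their values were seen. The lowest were Syn3, a synapsin, at 27 and 46 (-0.88) and Vamp1, a SNARE of fast-firing neurons, at 155 and 236 (-0.72), the second chosen after its value was seen. Slc17a7, the vesicular glutamate transporter and the most abundant gene of the list, gave 7139 and 6909 tags (-0.07).

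Postsynaptic scaffolds were mostly on the low side, with 1 interval above 0 and 8 below among 30 genes and a median of -0.12. Besides Iqsec2, the lower ones included Dlg4, the scaffold PSD-95 and the most abundant of the list (1943 and 2170, -0.27, interval -0.36 to -0.18), which had a ratio of 0.20 in cerebellum. Cnksr2 was highest at 206 and 158 (0.27) with an interval that included 0. These genes had a median transcript length of 4826 nucleotides, and 21 of the 30 were of 4000 or more, the range where brain genes of at least 10 CPM had medians of -0.03 and -0.04.

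Receptor subunits lay on both sides of 0. Of 17 ionotropic glutamate receptor genes 2 lay above 0 and 4 below. Neto2, an auxiliary subunit of kainate receptors, was highest (79 and 49, 0.58), Grin2c, an NMDA receptor subunit, lowest (34 and 54, -0.78) and Cnih2, an auxiliary subunit of AMPA receptors, the most abundant (3295 and 2761, 0.14). The metabotropic receptors Grm2, Grm3 and Grm5 had ratios from -0.07 to 0.07 and intervals that included 0. Among 13 GABA receptor genes 2 lay above and 3 below, from Gabrd, the extrasynaptic delta subunit (86 and 59, 0.43, interval -0.07 to 0.93), to Gabrb1 (38 and 59, -0.75), with Gabbr1 the most abundant (1058 and 999, -0.03).

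Calmodulin, CaM kinase and calcium-handling genes had 6 intervals above 0 and 12 below among 39, with a median of -0.04. Calm2 encodes the same protein as Calm3, the lowest of the list, and gave 4561 and 4293 tags, with an interval that included 0. The interval of Calm3 thus did not overlap that of Calm2. Ryr3, a calcium release channel, was highest at 71 and 44 (0.58). Voltage-gated sodium and calcium channel genes had 2 intervals above and 6 below among 22, from Cacna1d (92 and 60, 0.50) to Cacna1e (19 and 27, -0.62). Potassium channel genes had 2 above and 5 below among 37, from Kcnn2 (51 and 29, 0.70) to Kcna4 (34 and 61, -0.96).

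Genes switched on by neuronal activity were mostly within counting error. Of 24 immediate early genes none lay above 0 and 2 below, Arc, an activity marker of dendrites (120 and 171, -0.62), and Gadd45b (30 and 45, -0.70). Fos and Egr1, the usual markers of recent activity, gave 25 and 23 tags and 29 and 36. Neurofilament and microtubule genes had 8 intervals above and 10 below among 36, with Stmn4 highest (540 and 403, 0.31) and Mtap1b lowest.

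**Figure D5:**
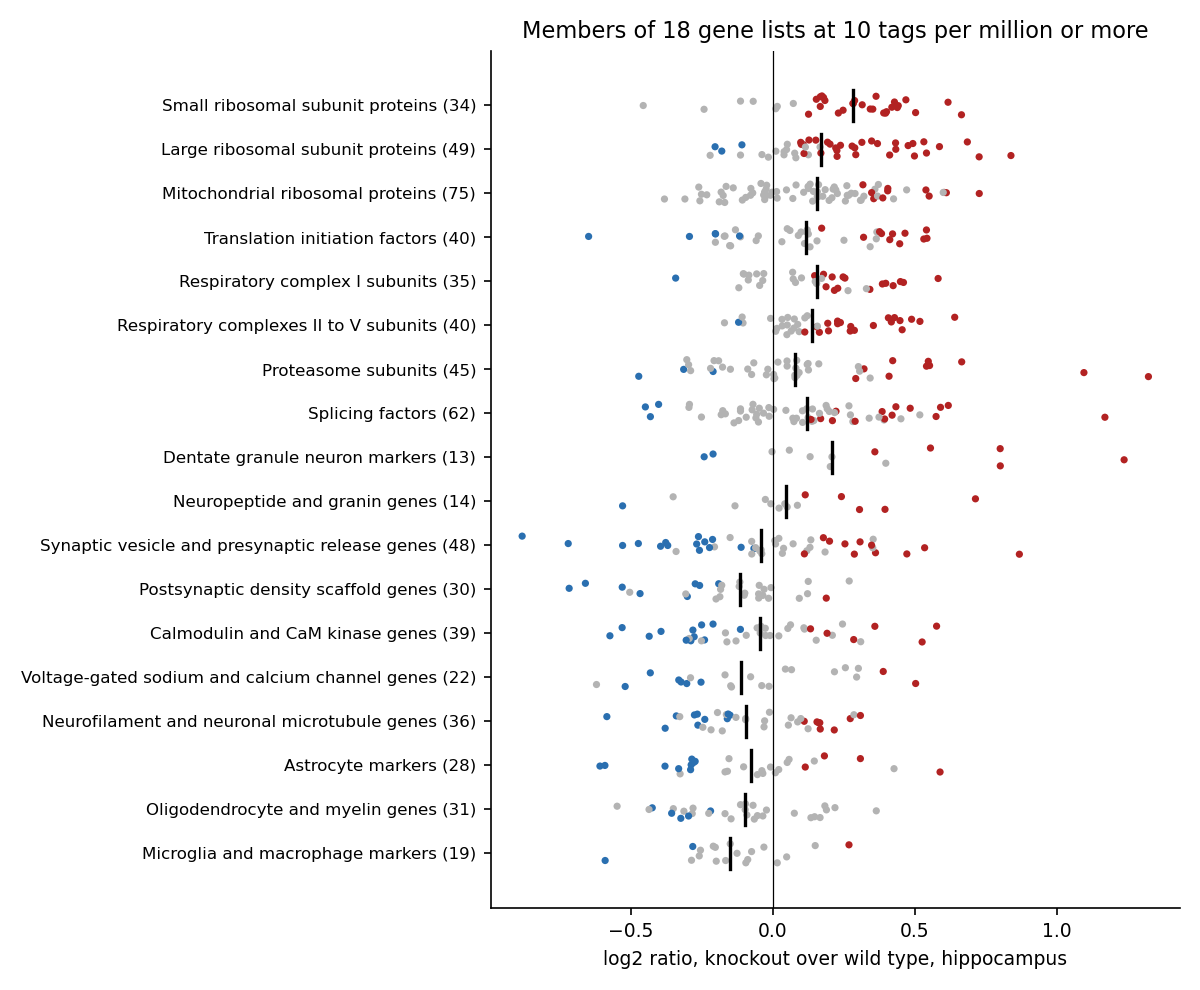
Log2 ratio of knockout over wild type in hippocampus (horizontal axis) of the members of 18 gene lists with at least 10 CPM (number in brackets); red points have an exact 95% counting interval above 0, blue points one below 0 and grey points one that includes 0, and black bars are medians. The medians of the ribosomal and respiratory lists lie to the right of 0, and those of the postsynaptic, channel and myelin lists to its left.

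Glial lists had medians below 0. Of 30 astrocyte markers 4 lay above 0 and 9 below, with a median of -0.08. Fjx1 was highest (262 and 161, 0.59) and Acsbg1 lowest with 2 and 6 tags, while Cpe, the most abundant, gave 6686 and 5966 (0.05, interval -0.00 to 0.10). Gfap, the intermediate filament that rises in reactive astrocytes, named after its value was seen, gave 650 and 726 (-0.27, interval -0.43 to -0.12). Among 32 oligodendrocyte and myelin genes none lay above 0 and 5 below, with a median of -0.11. Mbp, myelin basic protein and the most abundant, gave 4628 and 5740 (-0.42, interval -0.48 to -0.37) in hippocampus and 7571 and 11760 (-0.58) in cerebellum. Opalin was highest at 39 and 28 with an interval that included 0. Oligodendrocyte precursor markers had no interval off 0 among 15.

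Microglial markers were near their background share, with 1 interval above 0 and 2 below among 25. The complement genes went in opposite directions, C1qa with 460 and 353 tags (0.27) and C1qc with 115 and 160 (-0.59), and Aif1, highest of the list, gave only 17 and 9. Of 29 endothelial and mural markers 5 lay above and 3 below. Pecam1, an adhesion protein of endothelium, gave 30 and 11 (1.33, interval 0.30 to 2.48), and Kcnj8, a potassium channel of pericytes, 4 and 19 (-2.36, interval -4.38 to -0.77). Bsg, the most abundant, gave 3089 and 2595 (0.14). Meningeal, ependymal and choroid plexus markers had no interval above 0, and 3 of 15, 1 of 11 and none of 9 lay below.

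Markers of regions that border on the hippocampus were checked as a measure of the dissection. Cortical neuron markers had none above and 3 below 0 among 18, with Cux2 lowest at 8 and 21 tags (-1.51). Thalamic markers had none above and 1 below among 12, Prkcd (48 and 92, -1.05, interval -1.59 to -0.53), which is also expressed outside the thalamus. Tcf7l2, Lef1 and Ramp3 of the same list gave 18 and 26, 3 and 2 and 17 and 8 tags. Striatal markers had 1 above, Pde1b (457 and 342, 0.30), and none below among 11.

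Genes of RNA metabolism had more intervals above 0 than below. Among 62 splicing factors 14 lay above 0 and 3 below, with a median of 0.12, Hnrnpk highest and Rbfox2, a neuronal splicing regulator, lowest (356 and 449, -0.45). Among 55 genes of stress granules and mRNA decay, where ataxin-2 is itself found, 9 lay above and 1 below, Pum2, a translational repressor (257 and 332, -0.48). Of 20 noncoding RNAs 4 lay above and 3 below. Mirg, of the imprinted Dlk1-Dio3 region, was highest (100 and 61, 0.60), Meg3 of the same region gave 3897 and 3397 (0.08) and Peg13 was lowest (257 and 343, -0.53).

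Protein quality control genes were mixed. Among 41 chaperones 14 lay above and 5 below, with Cct3, a chaperonin subunit, highest (121 and 70, 0.68) and Hspa1b lowest. Among 45 proteasome genes 10 lay above and 3 below, from Psmg1 and Psmb3 to Psmb4 (220 and 282, -0.47). Among 24 genes of the stress and unfolded protein responses 2 lay above and 4 below. Hyou1, a chaperone of the endoplasmic reticulum, was lowest (67 and 110, -0.83, interval -1.29 to -0.38) and Sel1l, of the degradation pathway there, highest (396 and 309, 0.24). Autophagy genes had 5 above and 2 below among 31, with Atg16l1 lowest (49 and 76, -0.75).

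Lists of further pathways complete the description. Cholesterol genes had 1 interval above 0 and none below among 22, and clock genes had 2 above and none below among 17, Dbp, a clock output gene, at 319 and 183 tags (0.69, interval 0.42 to 0.96) and Per2 at 40 and 20 (0.89). Of 38 insulin and mTOR pathway genes 1 lay above, Akt1s1, an inhibitory component of mTOR complex 1 (411 and 249, 0.61), and 6 below, the lowest being Igf1r, the receptor of insulin-like growth factor 1 (57 and 86, -0.71). Of 8 interferon and MHC genes among the brain genes 1 lay above and 2 below. Stat2 was lowest at 26 and 52 tags (-1.11). Ifi27l1 gave 313 and 243 (0.25), and B2m, the light chain of MHC class I, gave 357 and 430 (-0.38). Isg15, H2-D1, Ifitm2 and Lgals3bp had intervals that included 0, and 24 of the 34 listed genes did not reach 10 CPM.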

How the data were processed

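Unnormalised tag counts, 1 sense and 1 antisense column for each library, were deposited by the authors for every RefSeq transcript. CASAVA 1.8.2 and the build mm9 are named in the submitters' processing notes. No aligner is named in the sources used here. The tables also name a GRCm38 genomic set, so coordinates were taken from RefSeq (GRCm38.p6) and not from the tables. RefSeq RNA rows took 61.6% and 59.8% of all tags in the knockout and wild-type hippocampus; rows of the mitochondrial genome, genomic contigs and unmatched tags stayed out. Sense counts were summed per symbol and scaled with TMM (edgeR 4.0.16, R 4.3.3), which was used for scaling only, as was DESeq2 1.42.0 in an alternative. Counting intervals are exact Clopper-Pearson intervals (scipy) for the knockout share of a gene's tags, and 3 tags stood in for a 0 in folds of absent genes. PCR copies are not independent molecules, so intervals cover counting error only. No test was run, since each genotype had 1 library. The intervals were tested on simulated tags that held counting error only, so PCR copies and differences between animals were not covered.

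The genes and lists were chosen with earlier results of these data known. Named genes are Atxn2, the 20 highest and 20 lowest brain genes by the size rule, the 12 highest and 12 lowest of at least 200 CPM, the 5 lowest set-apart transcripts, and of each of 57 lists the highest, lowest and most abundant member, or all members of lists of at most 12; clone and predicted names were left out, and a few genes the rule names are not reported here. List symbols missing from the tables were looked up among RefSeq synonyms. Lists were measured from 10 CPM, or from 1 for cell type, neuron class and region markers. Alternatives were other scalings, level limits, size limits, intervals, set-apart rules and row choices. Cerebellar libraries were scaled between themselves with TMM, and the difference between the tissues was not tested.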

Additional observations from a re-analysis of the deposited data

Results flagged for a closer look

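Across the 9205 brain genes, 163 had hippocampal and cerebellar intervals that excluded 0 on opposite sides, 102 of them higher and 61 lower in the knockout hippocampus; with 1 library per genotype the difference between the tissues was not tested. Of these, 9 are named here. Higher in hippocampus and lower in cerebellum were Rpl18 (0.68 against -0.09), Cnih2 (0.14 against -0.66), Stmn4 (0.31 against -0.22) and Sel1l (0.24 against -0.22). Lower in hippocampus and higher in cerebellum were Cplx2/Emp2/Rab3c (-0.77 against 0.22), Gabrb1 (-0.75 against 1.24), Dlg4 (-0.27 against 0.20), Sparc (-0.28 against 0.14) and Ptgds (-0.16 against 0.42).

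Antisense tags, which the comparisons above do not use, reached 10 CPM for 379 features, of which 9 were higher and 24 lower in the knockout by the size rule. Named genes with more antisense tags in the knockout were Sgol2 (43 against 7 tags, log2 ratio 2.505), Mfap1a (53 against 13, 1.91), Rn45s (110 against 35, 1.54), Serinc1 (34 against 13, 1.27), Dusp3 (49 against 20, 1.18), Ncs1 (46 against 20, 1.09) and Mtap1b (52 against 24, 1.00). Mtap1b went the other way in sense tags (-0.58), as given above.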

How the results depend on the processing

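No paired analysis was possible because each genotype had 1 library per tissue. The counts of brain genes past the size rule followed the level and size limits. With a minimum of 5 CPM 106 were higher and 105 lower, with 20 CPM 15 and 13, with no minimum 142 and 153, and with a limit of 1.5-fold in place of 2-fold 367 and 265. Set-apart transcripts lower in the knockout numbered 43 at 20 CPM and 199 with no minimum, where 1 was higher. Under the other scalings, interval, set-apart rules and row choices the 4 counts and the Atxn2 ratio stayed within 1.5 times or within the interval, and leaving out genes 5 to 20 times higher in liver, an alternative chosen after seeing the data, kept the counts of brain genes within 1.5 times too. DESeq2 size factors moved the median of brain genes from 0.01 to 0.04 and gave 61 higher and 37 lower, with 65 of 83 cytosolic ribosomal proteins above 0; library totals gave 50 and 50, with 54 of 83. Of 1975 repeated ratios of named genes 10 changed sign, all with a ratio of at most 0.1139 in size, and only Gapdh (-1.11 from rows of 1 symbol and -0.14 from its highest row) had an interval off 0 before. A further 6 ratios left their intervals, among them Atp5o (1.89) and Rpl29 (1.13) from rows of 1 symbol. Of 456 list medians 13 changed sign, all of at most 0.1092 in size, the largest being that of the CA2 markers (-0.0014 from rows of 1 symbol). A further 26 medians moved by more than the counting error of the list's summed tags, 15 of them with DESeq2 size factors. Joint features have no value in rows of 1 symbol. Depth limits low genes most: between 10 and 20 CPM counting alone gives a log2 SD of 0.36, and above 500 CPM one of 0.048.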
